A study of Mus musculus with 12 samples.

Results

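The genes described here are 10, namely 3 that encode NF-κB subunits or their precursors (Nfkb2, Relb and Rel) and 7 that encode proteins known to restrain or modulate the pathway (Nfkbia, Nfkbie, Nfkbiz, Bcl3, Tnfaip3, Tnip1 and Irak3). They were chosen by name for their role in the pathway, with earlier results of these data known. All 10 are among the 14907 genes listed in the deposited tables and among the 12385 genes tested. NF-κB is a family of dimeric transcription factors that inhibitory IκB proteins hold inactive in the cytoplasm. Toll-like receptors, most of them through the adaptor MyD88, activate a kinase complex that marks the IκB proteins for destruction, and the freed dimers enter the nucleus. Many genes that the dimers switch on encode the inhibitors themselves, which gives the pathway negative feedback loops. TLR4, the receptor of bacterial lipopolysaccharide (LPS), also signals through a route that does not need MyD88.

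The study measured messenger RNA in primary mesenchymal cells from mouse small intestine, which form the connective tissue beneath the epithelium, and asked how LPS changes them with and without MyD88. There were 12 libraries in 4 groups of 3: MyD88ko cells with LPS, MyD88ko cells untreated, wt cells with LPS and wt cells untreated. MyD88ko cells carried the alleles ColVIcre-MyD88F/F-RosamTmG, a collagen VI promoter Cre that acts in part of the mesenchyme, a floxed MyD88 gene and a fluorescent reporter that turns green after Cre has acted. The wt cells are labelled MyD88F/F-RosamTmG, without Cre, whereas the design text calls them Cre-positive. All cells were C57/Bl6, grown to passage 3, sorted on GFP and starved of serum overnight. Cells that never had Cre would not turn green, so the wt label also sits badly with a sort for green cells, and the protocol does not say which fraction was kept. If the label is right, the loss of MyD88 and the presence of Cre cannot be told apart. After the starvation the LPS groups had 2 µg/ml of LPS for 6 hours. No label says whether the 3 libraries of a group came from separate animals or cultures, so the p-values measure the spread between libraries, which may be technical.

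Values are normalized read counts from the 3′ ends of transcripts, which the authors deposited as whole numbers. Their totals ran from 3599944 to 4320551 per library, and the estimated depth ran from about 2.50 to 5.30 megareads. Myd88 itself had 24, 22 and 5 normalized counts in MyD88ko cells with LPS and 14, 8 and 10 in MyD88ko cells untreated, against 171, 204 and 213 in wt cells with LPS and 99, 98 and 103 in wt cells untreated. The labels do not say which part of the gene is deleted, and reads from its 3′ end need not show the loss of other parts. All 11 mesenchymal markers were listed, with summed counts of 131248 to 141849 in MyD88ko cells with LPS, 89025 to 111330 in MyD88ko cells untreated, 70613 to 117284 in wt cells with LPS and 43643 to 101308 in wt cells untreated. Among the wt untreated libraries, replicate 2 had the sum of 101308, beside 52110 in replicate 1 and 43643 in replicate 3. Col1a1, a collagen gene, made up much of these sums, with 72836 to 83203 counts in MyD88ko cells with LPS against 35191 to 60610 in wt cells with LPS. Pdgfra, a fibroblast receptor gene, went the other way, at 113 to 144 counts in MyD88ko cells with LPS and 73 to 158 in MyD88ko cells untreated, against 380 to 589 in wt cells with LPS and 314 to 611 in wt cells untreated. The leukocyte gene Ptprc and the macrophage gene Adgre1 were not listed, and the 5 of 11 leukocyte markers that were listed summed to at most 68 in any library. Epithelial markers, 6 of 10 of them listed, stood apart in 2 libraries: they summed to 394, 8 and 981 in wt untreated replicates 1, 2 and 3, against 4 to 27 in MyD88ko cells with LPS, 8 to 9 in MyD88ko cells untreated and 36 to 54 in wt cells with LPS. In wt untreated replicate 1 the sum came mainly from Cldn4 and Krt19, at 213 and 166 counts, while Cdh1 had 3. In wt untreated replicate 3 it came mainly from Cdh1, at 719 counts. Muc2 went the other way, with 0 counts in wt cells untreated and 11 to 32 in wt cells with LPS. Krt8, Cldn3, Cldn7 and Vil1 were not listed. Of 6 hepatocyte markers 4 were listed, at sums of 4 to 25 in MyD88ko and 10 to 19 in wt cells with LPS, against 143 to 185 in MyD88ko and 109 to 265 in wt cells untreated. The part of these markers in the results was not tested. Untreated and LPS libraries also carry separate series of library codes, so that effects of the treatment and of the series of libraries cannot be told apart.

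The DNA around the start sites is shown first because NF-κB dimers bind a short recognition sequence, the κB site, and the RefSeq promoter windows (build GRCm38.p6, 250 bases before to 50 after a transcript start) let it be read directly. The table matched 8 of the 10 genes, all but Nfkbiz and Relb, with 12 windows. Shown are the windows of an inhibitor, a nuclear cofactor, an upstream inhibitor and 2 subunits, each 5′ to 3′ on the gene's strand, with capitals marking matches to the κB consensus on either strand, overlapping matches run together. They lie at chr12:55492598-55492897 (minus strand) for Nfkbia, chr7:19822706-19823005 (minus) for Bcl3, chr11:54962891-54963190 (minus) for Tnip1, chr19:46304487-46304786 (plus) for Nfkb2 and chr11:23770920-23771219 (minus) for Rel.
Nfkbia: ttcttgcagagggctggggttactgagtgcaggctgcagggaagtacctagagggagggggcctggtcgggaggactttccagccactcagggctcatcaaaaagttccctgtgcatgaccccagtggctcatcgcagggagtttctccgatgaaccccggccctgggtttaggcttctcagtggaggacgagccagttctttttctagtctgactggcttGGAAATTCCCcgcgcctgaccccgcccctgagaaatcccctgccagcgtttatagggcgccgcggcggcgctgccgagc
Bcl3: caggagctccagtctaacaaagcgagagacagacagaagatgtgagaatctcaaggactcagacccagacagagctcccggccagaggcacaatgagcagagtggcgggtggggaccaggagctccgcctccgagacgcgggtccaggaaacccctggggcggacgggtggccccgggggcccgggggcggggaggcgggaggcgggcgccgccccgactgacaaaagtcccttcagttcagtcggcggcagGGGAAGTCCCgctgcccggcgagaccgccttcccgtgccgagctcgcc
Tnip1: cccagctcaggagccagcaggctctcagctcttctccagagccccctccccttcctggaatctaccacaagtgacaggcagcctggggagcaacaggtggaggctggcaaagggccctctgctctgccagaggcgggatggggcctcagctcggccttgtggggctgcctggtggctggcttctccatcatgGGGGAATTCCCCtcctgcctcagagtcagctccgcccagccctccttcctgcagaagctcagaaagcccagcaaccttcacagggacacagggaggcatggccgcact
Nfkb2: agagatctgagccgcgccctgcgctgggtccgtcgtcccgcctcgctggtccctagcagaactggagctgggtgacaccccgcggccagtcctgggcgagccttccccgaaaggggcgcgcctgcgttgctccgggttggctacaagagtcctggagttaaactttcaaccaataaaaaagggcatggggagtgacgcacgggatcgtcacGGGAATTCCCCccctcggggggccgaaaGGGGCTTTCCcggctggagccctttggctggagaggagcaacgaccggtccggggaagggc
Rel: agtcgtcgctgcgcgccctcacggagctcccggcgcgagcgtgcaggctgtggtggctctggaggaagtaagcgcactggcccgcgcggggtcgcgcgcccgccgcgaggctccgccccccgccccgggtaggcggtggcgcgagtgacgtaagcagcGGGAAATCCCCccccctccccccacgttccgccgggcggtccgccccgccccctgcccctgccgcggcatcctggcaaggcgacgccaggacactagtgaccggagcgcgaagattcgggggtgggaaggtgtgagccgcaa

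The Nfkbia match lay 29 to 20 bases upstream of the start site, and the Tnip1 stretch of overlapping matches lay 58 to 47 bases upstream. Nfkb2 had 2 stretches in the window shown, at 39 to 29 and at 11 to 2 bases upstream, and Rel had one at 92 to 82 bases upstream. In Bcl3 the match lay 2 to 11 bases downstream of the start. Nfkbie held a match 106 to 97 bases upstream, and Tnfaip3 held matches 125 to 116 and 12 to 3 bases upstream. Irak3 had none in either of its windows. The κB consensus was thus found in 7 of 8 genes and 9 of 12 windows, against 9.55% of all 27025 genes and 8.46% of all 32851 windows of that table. Windows 2 and 3 of Nfkb2 overlap and share a match, which is counted in both. It lies 10 to 19 bases downstream of the start in window 2 and 225 to 216 bases upstream in window 3. The looser form GGGNNNNNCC, of which every consensus match is a case, was in 8 of 8 genes and 11 of 12 windows, against 53.5% of all genes and 50.8% of all windows. A match describes letters and is not a measured binding site, and the genes were chosen as members of the pathway. The map of matches shows that both genes that rose and genes that did not hold them.

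**Figure D1:**
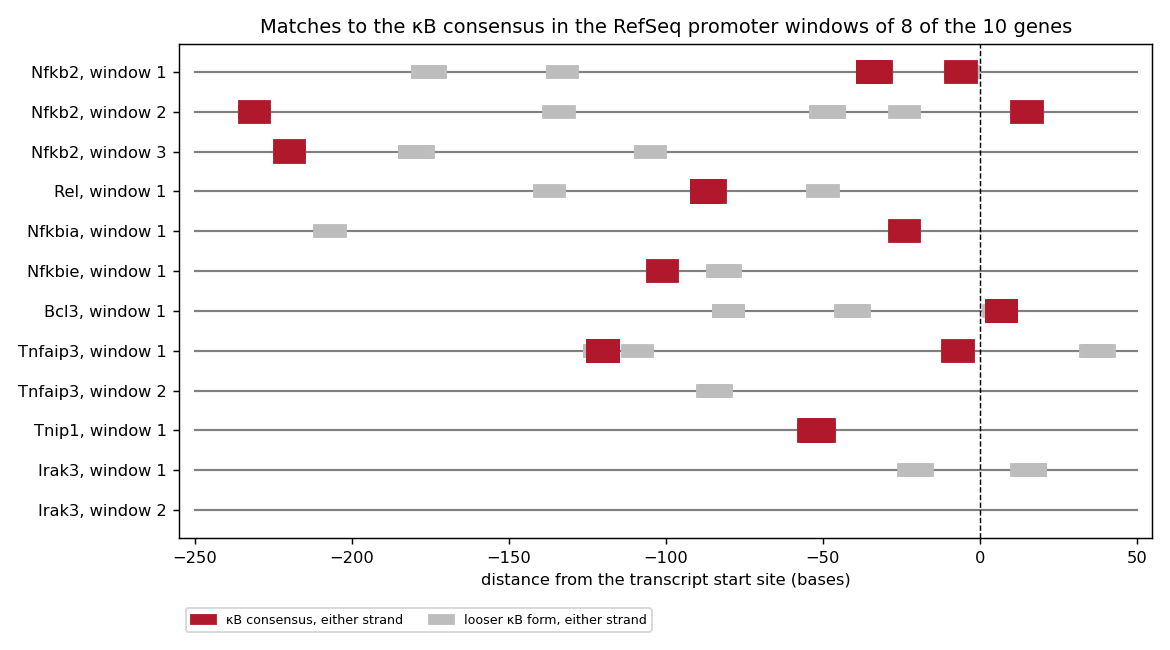
Matches in 12 RefSeq promoter windows of 8 genes, by distance from the transcript start site in bases (dashed line at the start). Red boxes are matches to the κB consensus and grey boxes matches to the looser form only, on either strand; Irak3 is the gene without a red box.

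LPS raised 2 of the 10 transcripts in MyD88ko cells (Bcl3 and Nfkbia) and lowered 0, with limma at an adjusted p under 0.05 over all genes tested. In that comparison 5.98% of all genes tested were called, 2.58% higher and 3.40% lower. In wt cells LPS raised 4 (Nfkbia, Bcl3, Nfkbiz and Nfkb2) and lowered 1 (Rel), where 19.2% of all genes were called, 9.55% higher and 9.66% lower. The median log2 fold change with LPS of the 10 genes was 0.92 in MyD88ko cells, beside 0.00 over all genes, and 1.19 in wt cells, beside 0.01 over all genes. In MyD88ko cells all LPS libraries lay above all untreated ones for 5 of the 10 genes (12.2% of all genes) and below for 1 (13.3% of all genes), and in wt cells above for 6 and below for 0 (17.4% of all genes in each direction). Between genotypes, 3 of the 10 were lower in MyD88ko than in wt cells with LPS (Nfkbia, Nfkbiz and Bcl3) and 0 were higher, where 1.49% of all genes were called, 1.04% lower and 0.452% higher. Without LPS, 2 were lower in MyD88ko cells (Nfkbiz and Bcl3) and 0 higher, where 1.88% of all genes were called, 1.09% lower and 0.791% higher. The MyD88ko libraries lay wholly below the wt libraries for 4 of the 10 genes with LPS (8.31% of all genes) and for 2 untreated (9.89% of all genes), and wholly above for 0 with LPS (7.54% of all genes) and 0 untreated (10.5% of all genes). The comparisons share groups, so their calls are not independent of each other. As the 10 genes were chosen with earlier results of these data known, the shares of all genes describe an excess and do not test it.

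**Figure D2:**
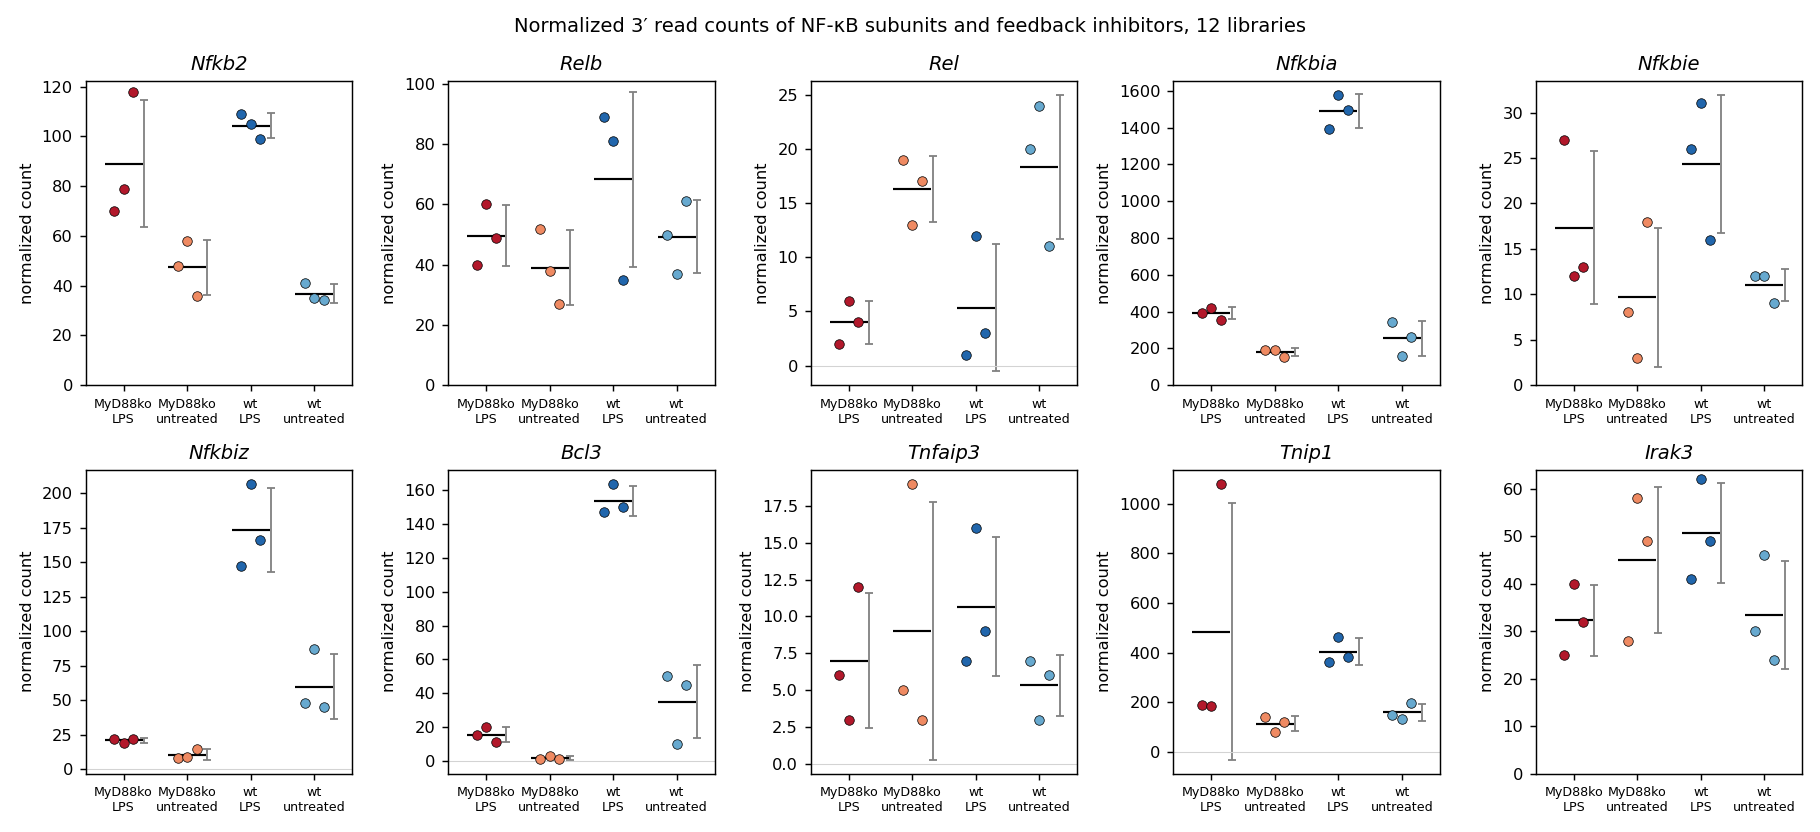
Normalized count of each gene in every library, with MyD88ko LPS, MyD88ko untreated, wt LPS and wt untreated from left to right. Points are libraries, black lines means and grey bars the SD (n = 3); the scales differ between panels. For Nfkbia, Nfkbiz and Bcl3 every wt library with LPS lies above all other libraries, and Tnip1 has 1 library at 1081.

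Nfkb2 encodes p100, the precursor of the p52 subunit, which in its uncut form also acts as an inhibitor. The gene lies at chr19:46304737-46312090 on the plus strand (mm10). It had 70, 79 and 118 normalized counts in MyD88ko cells with LPS and 48, 58 and 36 in MyD88ko cells untreated, against 109, 105 and 99 in wt cells with LPS and 41, 35 and 34 in wt cells untreated. In both genotypes the LPS libraries lay above all untreated ones. In MyD88ko cells the fold was 1.85 and did not pass the test (log2 0.89 ± 0.29 (SE), limma adjusted p = 0.0776). The rise passed in wt cells (2.80-fold, log2 1.49 ± 0.29, limma adjusted p = 0.00123). The genotypes overlapped with LPS, with a log2 difference of -0.26 and a 95% interval from -0.87 to 0.34. The gene Psd lies on the opposite strand over the 3′ end of Nfkb2, and the sources used here do not say that the counting used strand, so reads of the pair may not be told apart. Psd had 16, 21 and 2 counts in MyD88ko cells with LPS and 8, 16 and 13 in MyD88ko cells untreated, against 27, 50 and 27 in wt cells with LPS and 6, 33 and 25 in wt cells untreated.

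Relb, the partner of p52 in the slower, non-canonical arm of the pathway (chr7:19606217-19629438, minus strand), had 40, 60 and 49 counts in MyD88ko cells with LPS and 52, 38 and 27 in MyD88ko cells untreated, against 89, 81 and 35 in wt cells with LPS and 50, 37 and 61 in wt cells untreated. Its groups overlapped in every comparison, and its log2 response to LPS was 0.37 ± 0.38 in MyD88ko and 0.38 ± 0.38 in wt cells (SE). Rel encodes c-Rel, a subunit best known from lymphocytes (chr11:23736847-23770970, minus strand). It had low counts throughout, with 2, 6 and 4 counts in MyD88ko cells with LPS and 19, 13 and 17 in MyD88ko cells untreated, against 1, 12 and 3 in wt cells with LPS and 20, 24 and 11 in wt cells untreated. The LPS libraries were lower in both genotypes, without overlap in MyD88ko cells and with the wt replicate of 12 counts reaching into the untreated range. The difference did not pass the test in MyD88ko cells (3.63-fold, log2 -1.86 ± 0.68, limma adjusted p = 0.115) and passed in wt cells (3.93-fold lower, log2 -1.97 ± 0.68, limma adjusted p = 0.0476). The wt call rests close to the threshold: it was lost in 13 of 22 alternative analyses, whose adjusted p ran from 0.0117 to 0.214. Summed over libraries the estimated reads of Rel were 13 in MyD88ko cells with LPS and 53 in MyD88ko cells untreated, and 18 in wt cells with LPS and 53 in wt cells untreated. The wt ratio was 3.23 times lower with LPS, with an exact binomial 95% interval of 1.86 to 5.85 that covers counting error only.

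Nfkbia encodes IκBα, the inhibitor that is degraded first on activation and then made again (chr12:55489411-55492647, minus strand). It had 393, 420 and 355 counts in MyD88ko cells with LPS and 192, 188 and 152 in MyD88ko cells untreated, against 1394, 1578 and 1498 in wt cells with LPS and 343, 157 and 261 in wt cells untreated. The LPS groups lay wholly above their untreated groups in both genotypes, and every MyD88ko library with LPS lay below every wt library with LPS. LPS raised Nfkbia 2.20-fold in MyD88ko cells (log2 1.13 ± 0.24, limma adjusted p = 0.00715) and 6.14-fold in wt cells (log2 2.62 ± 0.24, limma adjusted p = 1.07e-06). With LPS the MyD88ko level was 3.82-fold lower than the wt level (limma adjusted p = 0.000121), at means of 389 ± 32.7 in MyD88ko cells and 1490 ± 92.3 in wt cells (SD, n = 3 each). Without LPS the means were 177 ± 22.0 in MyD88ko cells and 254 ± 93.2 in wt cells, a log2 difference of -0.45 that did not pass (limma adjusted p = 0.378).

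The test of the difference between the LPS responses, MyD88ko minus wt, called none of the 10 genes. It called 2 of all 12385 genes (0.0161%), 1 in each direction (0.00807% each), and at an unadjusted p under 0.05 it had 1 of the 10 genes, Nfkbia, where 9.18% of all genes had such a p. The difference for Nfkbia was -1.49 ± 0.34 on the log2 scale, with a 95% interval from -2.19 to -0.78 (limma adjusted p = 0.208). The wt untreated replicates 1 and 3 had higher epithelial and lower mesenchymal marker sums than replicate 2. These replicates had 343 and 261 Nfkbia counts beside 157 in replicate 2. Without both of them the difference was -2.10 and passed (limma adjusted p = 0.0286), with the lone wt untreated library taken to vary like the other groups. The intervals of the other 9 genes all included 0.

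**Figure D3:**
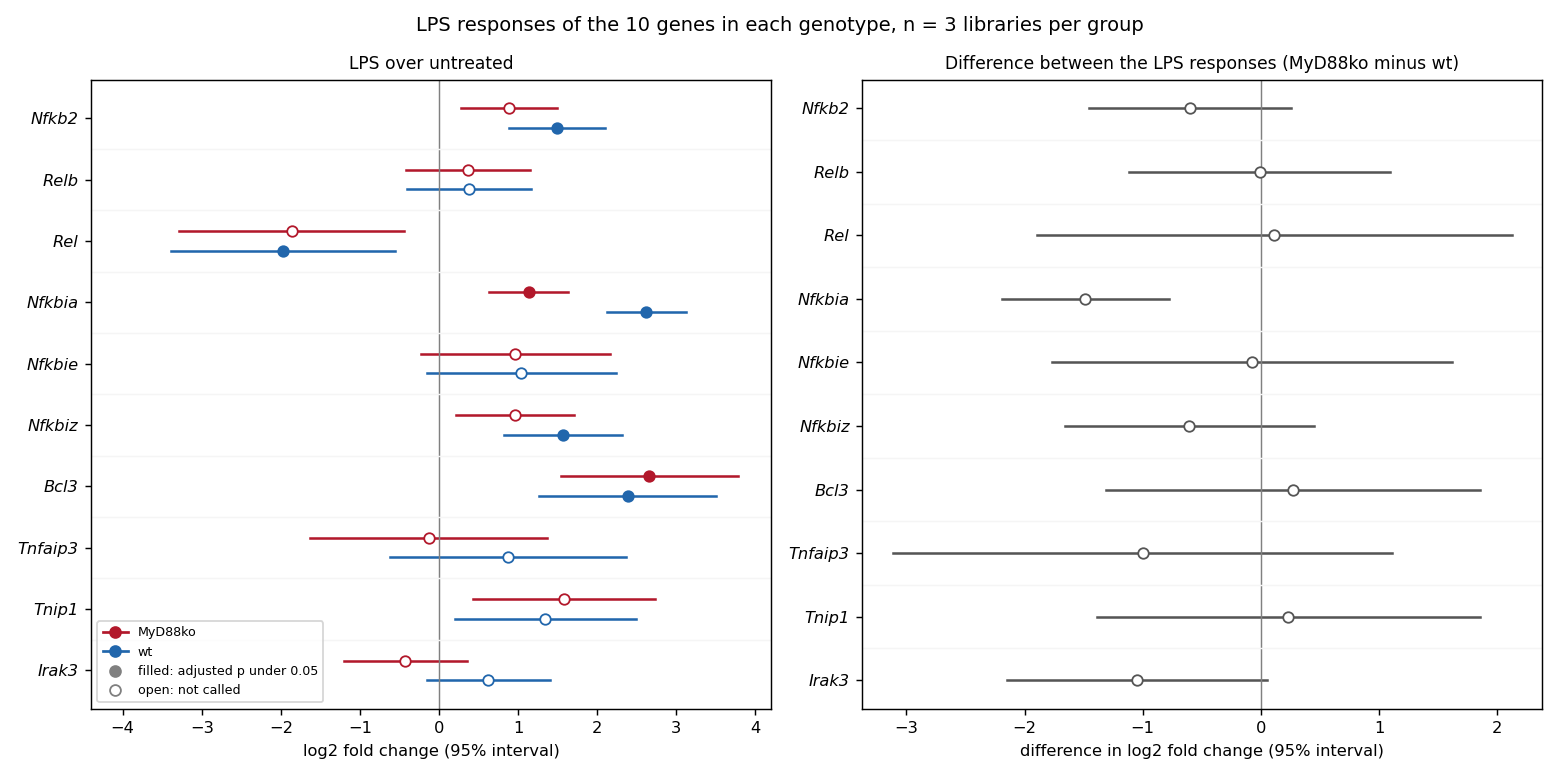
Log2 fold change of each gene with LPS over untreated, in MyD88ko (red) and wt cells (blue), and on the right the difference between the responses (MyD88ko minus wt). Points are estimates, lines 95% intervals and filled points have an adjusted p under 0.05; the Nfkbia difference lies wholly below 0 and none on the right is filled.

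Nfkbie encodes IκBε, a second cytoplasmic inhibitor (chr17:45555716-45563169, plus strand). It had 27, 12 and 13 counts in MyD88ko cells with LPS and 8, 3 and 18 in MyD88ko cells untreated, against 26, 31 and 16 in wt cells with LPS and 12, 12 and 9 in wt cells untreated. The wt groups did not overlap, but at these counts the log2 fold change of 1.04 had a 95% interval from -0.16 to 2.24 (limma adjusted p = 0.223). It was called in none of the 5 comparisons.

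Nfkbiz and Bcl3 encode nuclear relatives of the IκB proteins, IκBζ and BCL-3, which bind NF-κB dimers on DNA and can switch target genes on as well as off. They were the 2 genes of the 10 that were lower in MyD88ko cells both with and without LPS. Nfkbiz (chr16:55811375-55838899, minus strand) had 22, 19 and 22 counts in MyD88ko cells with LPS and 8, 9 and 15 in MyD88ko cells untreated, against 147, 207 and 166 in wt cells with LPS and 48, 87 and 45 in wt cells untreated. Every MyD88ko library, with LPS included, lay below every wt library. The MyD88ko level was 7.86-fold lower with LPS (log2 -2.98 ± 0.36, limma adjusted p = 8.31e-05) and 5.16-fold lower untreated (log2 -2.37 ± 0.36, limma adjusted p = 0.000963). With LPS the level did not pass the test in MyD88ko cells, although the groups did not overlap (1.94-fold, limma adjusted p = 0.12), and it rose in wt cells (2.96-fold, limma adjusted p = 0.0042). Without wt untreated replicates 1 and 3 the wt response was log2 0.97 and was lost (limma adjusted p = 0.267), and the remaining library had the highest untreated count, 87. Under the same omission the untreated genotype difference held, at log2 -2.96 (limma adjusted p = 0.0146).

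Bcl3 (chr7:19808462-19822770, minus strand) had 15, 20 and 11 counts in MyD88ko cells with LPS and 1, 3 and 1 in MyD88ko cells untreated, against 147, 164 and 150 in wt cells with LPS and 50, 10 and 45 in wt cells untreated. It rose with LPS in both genotypes, 6.32-fold in MyD88ko cells (log2 2.66 ± 0.54, limma adjusted p = 0.00557) and 5.23-fold in wt cells (log2 2.39 ± 0.54, limma adjusted p = 0.00383). The difference between these responses was 0.27, with a 95% interval from -1.31 to 1.86. Its level was 9.71-fold lower in MyD88ko than in wt cells with LPS (log2 -3.28 ± 0.54, limma adjusted p = 0.00212) and 11.7-fold lower untreated (log2 -3.55 ± 0.54, limma adjusted p = 0.000963). These folds are on the log2(value + 1) scale, and the difference between the responses was 0.54 with a pseudocount of 0.5 and -0.60 with a pseudocount of 5. The MyD88ko untreated libraries held an estimated 5 reads in all, so that the ratio of summed reads was 21.9 times lower than in wt cells untreated, with an exact binomial 95% interval of 9.08 to 69.1, and 9.88 times higher with LPS than without, with an interval of 3.97 to 31.7. The same ratio with LPS over untreated was 4.50 in wt cells, with an interval of 3.6 to 5.66. The intervals cover counting error only. Without wt untreated replicates 1 and 3 the untreated difference between genotypes was log2 -2.13 and was lost (limma adjusted p = 0.33), the remaining library having 10 counts. With voom weights both the untreated genotype difference (limma adjusted p = 0.0768) and the MyD88ko response (limma adjusted p = 0.126) were lost. Antisense genes annotated over Bcl3 do not reach its 3′ end.

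**Figure D4:**
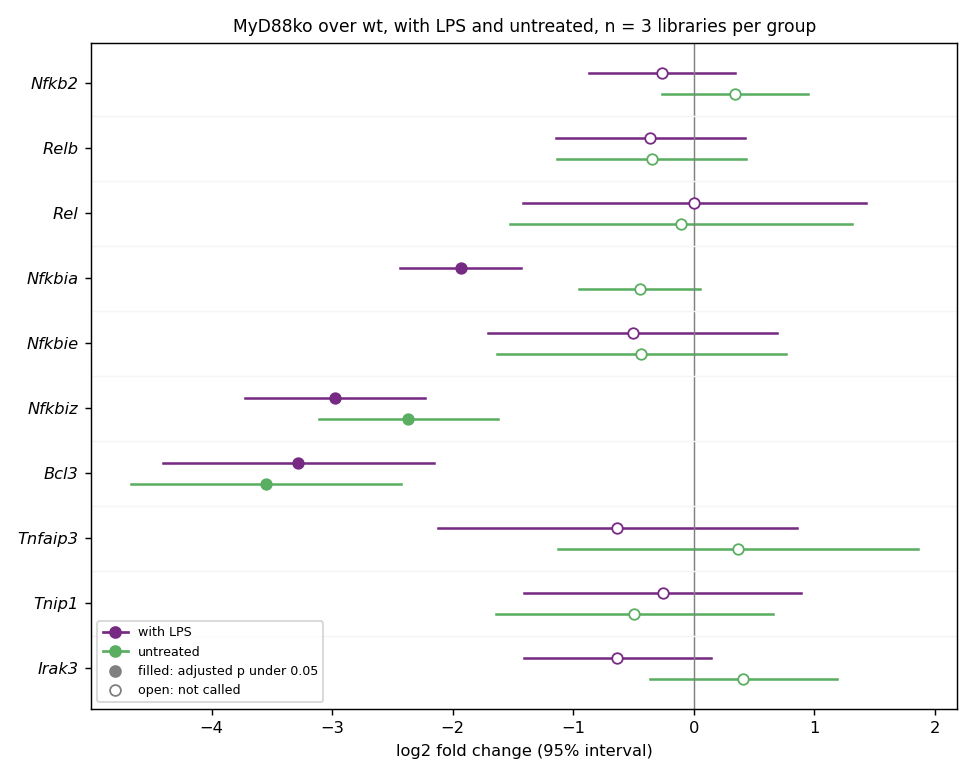
Log2 fold change of MyD88ko over wt cells for each gene, with LPS (purple) and untreated (green). Points are estimates, lines 95% intervals and filled points have an adjusted p under 0.05; Nfkbiz and Bcl3 are filled in both conditions and Nfkbia with LPS.

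The remaining 3 genes encode proteins that act upstream of the IκB proteins. Tnfaip3 encodes A20, an enzyme that edits ubiquitin chains on signalling proteins (chr10:19000910-19015657, minus strand). It had 6, 3 and 12 counts in MyD88ko cells with LPS and 5, 19 and 3 in MyD88ko cells untreated, against 7, 16 and 9 in wt cells with LPS and 7, 3 and 6 in wt cells untreated. All groups overlapped, and at this depth no difference was detectable: the log2 response ran from -1.63 to 1.36 in MyD88ko cells and from -0.63 to 2.36 in wt cells (95% intervals).

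Tnip1 encodes ABIN1, a ubiquitin-binding partner of A20 (chr11:54910785-54962917, minus strand). It had 188, 185 and 1081 counts in MyD88ko cells with LPS and 143, 81 and 120 in MyD88ko cells untreated, against 363, 465 and 383 in wt cells with LPS and 149, 133 and 197 in wt cells untreated. In both genotypes the LPS libraries lay above all untreated ones, and MyD88ko LPS replicate 3 stood far above every other library. The response did not pass in MyD88ko cells (2.99-fold, limma adjusted p = 0.105) or in wt cells (2.54-fold, limma adjusted p = 0.0977). Without that library the MyD88ko response was log2 0.74 (limma adjusted p = 0.116), the wt rise passed (limma adjusted p = 0.00042), and the MyD88ko level with LPS was called lower than the wt level (log2 -1.10, limma adjusted p = 0.044), against log2 -0.26 with it. Fitted on the wt libraries alone, the wt response also passed (limma adjusted p = 0.00125). Without MyD88ko LPS replicate 2 the MyD88ko response was log2 2.00 and passed (limma adjusted p = 0.0489).

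Irak3 encodes IRAK-M, a kinase relative that blocks signalling next to MyD88 and is best known from macrophages (chr10:120141648-120202130, minus strand). It had 25, 40 and 32 counts in MyD88ko cells with LPS and 28, 58 and 49 in MyD88ko cells untreated, against 41, 62 and 49 in wt cells with LPS and 30, 46 and 24 in wt cells untreated. With LPS every MyD88ko library lay below every wt library, as did 8.31% of all genes, but the difference did not pass (log2 -0.64 ± 0.37, limma adjusted p = 0.524). Its log2 response to LPS was -0.43 in MyD88ko cells and 0.62 in wt cells, and the interval of their difference ran from -2.15 to 0.05 (limma adjusted p = 0.562).

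In the authors' deposited table, which was made with a different test, 3 of the 10 genes had an adjusted p under 0.05 between MyD88ko and wt cells with LPS, namely Nfkbia, Nfkbiz and Bcl3, where 0.544% of the genes in that comparison did. Without LPS 2 did in the authors' deposited table, Nfkbiz and Bcl3, where 1.60% of its genes did. These are the genes called here. For LPS against untreated, the authors' deposited table had 2 in MyD88ko cells, Bcl3 and Tnip1 (0.755% of its genes), and 3 in wt cells, Nfkbia, Bcl3 and Tnip1 (4.35% of its genes). Nfkbia in MyD88ko cells had an adjusted p of 0.250 in the authors' deposited table, and in wt cells Nfkbiz had 0.0800, Nfkb2 had 0.0896 and Rel had 0.492.

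Other genes of the pathway are given by list. With LPS, 2.58% of all genes tested were called higher and 3.40% lower in MyD88ko cells, and 9.55% and 9.66% in wt cells. Between genotypes 1.49% were called with LPS and 1.88% untreated. Of 19 tested genes between the receptor and the IκB kinase, whose median log2 fold change with LPS was 0.22 in MyD88ko cells and 0.05 in wt cells, LPS raised 1 in wt cells, Peli1, a ubiquitin ligase of the receptor pathway (1.79-fold, limma adjusted p = 0.0127), with means of 224 counts in MyD88ko cells with LPS and 151 in MyD88ko cells untreated, against 286 in wt cells with LPS and 163 in wt cells untreated. The test called 0 of the 19 in the other 4 comparisons. Of 4 other subunit and IκB genes tested, LPS raised 1 in MyD88ko cells (median log2 fold change of the 4 genes 0.59) and 2 in wt cells (median 0.55), and 0 were called between genotypes. Nfkbib, which encodes IκBβ, had 112, 123 and 84 counts in MyD88ko cells with LPS and 40, 29 and 42 in MyD88ko cells untreated, against 91, 55 and 106 in wt cells with LPS and 45, 48 and 31 in wt cells untreated. It rose in MyD88ko cells (2.82-fold, limma adjusted p = 0.00732) and in wt cells (log2 0.98 ± 0.32, limma adjusted p = 0.036). Nfkbil1, an IκB-like gene, had a log2 fold change of 1.27 ± 0.40 in MyD88ko cells, without overlap of the groups but short of the threshold (limma adjusted p = 0.0701), and rose in wt cells, where the groups overlapped (log2 1.46 ± 0.40, limma adjusted p = 0.0149). The difference between these responses was -0.19, with a 95% interval from -1.38 to 1.0. Rela, the main activating subunit, had 394, 527 and 351 counts in MyD88ko cells with LPS and 568, 580 and 614 in MyD88ko cells untreated, against 528, 580 and 397 in wt cells with LPS and 394, 393 and 943 in wt cells untreated. Nfkb1, which encodes p105 and p50, had 30 to 103 counts across all libraries, and neither Rela nor Nfkb1 was called in any comparison.

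Of 15 other feedback inhibitors tested, with a median log2 fold change of -0.11 in MyD88ko cells and 0.03 in wt cells, LPS raised 0 and lowered 1 in MyD88ko cells, Dusp1, a phosphatase of MAP kinases (log2 -0.86, limma adjusted p = 0.0199). In wt cells LPS raised 2 and lowered 1. Dusp1 was not called there, although its LPS libraries lay below all untreated ones (log2 -0.43, limma adjusted p = 0.172). Zc3h12a encodes Regnase-1, a nuclease that degrades inflammatory mRNAs, and it was the 1 gene of this list called between genotypes, with LPS. It had 24, 31 and 18 counts in MyD88ko cells with LPS and 12, 7 and 13 in MyD88ko cells untreated, against 111, 104 and 150 in wt cells with LPS and 26, 20 and 40 in wt cells untreated. LPS raised Zc3h12a 4.24-fold in wt cells (limma adjusted p = 0.000907). In MyD88ko cells the 2.19-fold response did not pass, although the groups did not overlap (limma adjusted p = 0.0947). MyD88ko cells had a 4.89-fold lower level than wt cells when both had LPS (limma adjusted p = 0.00295). Untreated, the 2.52-fold lower level did not pass (limma adjusted p = 0.093), nor did the difference between the responses (limma adjusted p = 0.613). Tank, an adaptor that dampens receptor signals, also rose in wt cells (log2 0.97, limma adjusted p = 0.0224), and Tax1bp1, a partner of A20, fell (log2 -0.73, limma adjusted p = 0.0168). In MyD88ko cells neither passed, at log2 0.18 for Tank and -0.36 for Tax1bp1 (limma adjusted p = 0.774 and 0.337).

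Likeness among the 10 transcripts was uneven. Over the 45 pairs of genes, the median Pearson r of log2(count + 1) across the 12 libraries was 0.35, 2 pairs exceeded 0.8 (Nfkbiz with Bcl3 at 0.882, Nfkbia with Bcl3 at 0.873) and 11 were below 0. These values describe 12 libraries in 4 groups and mostly carry the group differences. After each group mean was subtracted, the median over pairs was 0.05. Nfkbia with Bcl3 then stood at 0.881, whereas Nfkbiz stood at -0.745 with Nfkbia and at -0.707 with Bcl3. In wt untreated replicate 2, Nfkbia and Bcl3 were lowest of their group and Nfkbiz highest. That library had the lowest epithelial and the highest mesenchymal marker sum of its group. Against the mean standardized profile of all 10, Nfkbia had the highest r (0.922) and Rel the lowest (-0.439). The protein-coding genes outside the 10 whose log2 counts followed that profile most closely over the 12 libraries were Gng2 (r = 0.944), Gbp2 (0.936), Sco2 and Tymp (0.933 each) and Hif1a (0.927). Sco2 and Tymp had identical counts in every library, so their reads cannot be told apart. Hif1a, which encodes a hypoxia-regulated transcription factor subunit, had 449, 407 and 707 counts in MyD88ko cells with LPS and 372, 496 and 316 in MyD88ko cells untreated, against 1191, 1193 and 1063 in wt cells with LPS and 596, 498 and 626 in wt cells untreated.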

How the data were processed

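Messenger RNA was measured in 12 libraries, 3 in each of 4 groups, with a 3′ library kit (QuantSeq) on an Ion Proton, per the labels' protocols. Tools given in the submitters' processing notes are Bowtie2, TopHat2 and DESeq, and the genome build is mm10, all without a version. Bowtie2 and TopHat2 have no stated role, and the headers of the authors' p-values and adjusted p-values name DESeq. The expression values the authors deposited are scores: normalized read counts, rounded to whole numbers. The same deposited tables give the authors' p-value and adjusted p-value, their fold change as a ratio, and its log2, in each comparison. Values that appear in more than 1 table (166719) were identical in each. Depth was estimated for each library from whole numbers that rounded, rescaled counts skip. The estimate assumes whole read counts that were rescaled by a single factor per library.

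The log2 of each value plus a pseudocount of 1 was fitted with limma 3.58.1 (R 4.3.3), using its trend and robust options, for all 12 libraries together, with the 4 groups as coefficients, which leaves 8 residual degrees of freedom. Tested were the 12385 genes measured in every library whose mean reached 10 in some group. A gene was called at a two-sided Benjamini-Hochberg adjusted p under 0.05 over all genes tested. Folds are on the log2(value + 1) scale. With 3 libraries a group, libraries set against each other cannot give an exact permutation p under 0.1, so none is given. The genes and lists were chosen with earlier results of these data known. Named genes are all 10 members, Myd88, Nfkb1, Rela and Nfkbib, at most 4 called genes per other list and comparison, and the 5 genes closest to the mean profile. Genes named outside this rule, after their values were seen, include Psd, for its overlap with Nfkb2. The others are the markers Col1a1, Pdgfra, Cldn4, Krt19, Cdh1 and Muc2, and the targets Il6, Icam1, Cxcl2, Ccl20 and Vcam1. Alternatives were other scalings, pseudocounts (0.5 and 5), filters, weights, samples in the fit, a replicate term and leaving out libraries. Promoter windows are RefSeq's, build GRCm38.p6, and were searched on both strands. Gene coordinates are those of the deposited tables.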

Additional observations from a re-analysis of the deposited data

How the results depend on the processing

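Over 23 alternatives, 1125 values of the 50 results (10 genes in 5 comparisons, 12 of them called) gave 1103 on the same side of the threshold, 17 that lost a call and 5 that gained one. Of the 1103, 42 had the other sign, all in results that were called neither in the fit reported nor under that alternative. With voom weights 1 gene was called for LPS in MyD88ko cells, against 2, and 1 between genotypes untreated, against 2. Without wt untreated replicates 1 and 3 together, 3 genes were called for LPS in wt cells, against 5, 1 between genotypes untreated, against 2, and 1 in the difference between responses, against 0. Leaving out each library in turn gave 2 to 3 genes for LPS in MyD88ko cells, 4 to 6 for LPS in wt cells, 3 to 4 between genotypes with LPS, 2 to 2 untreated and 0 to 0 for the difference.

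With the replicate number as a block, the counts were 2, 5, 3, 2 and 0 in the same order, the same as without it. Whether the numbers pair the libraries cannot be decided from these values, as the ranges overlap. Deviations from the group means of same-numbered libraries correlated at -0.114 to 0.171 (median 0.035), those of other numbers at -0.211 to 0.162 (median -0.014). Of 12 libraries, 5 correlated best with their own number.

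The counts over all genes moved more. With 1 library, or wt untreated replicates 1 and 3, left out they ran from 337 to 791 for LPS in MyD88ko cells (741 in the fit reported), from 969 to 2729 for LPS in wt cells (2380), from 85 to 197 between genotypes with LPS (185), from 37 to 412 untreated (233) and from 0 to 44 for the difference (2). In the alternatives that kept every library they ran, in the same order, from 425 to 763, from 1881 to 2545, from 112 to 206, from 74 to 278 and from 0 to 4. Rescaling by trimmed means and quantile normalization moved the median of all genes by at most 0.0351 (log2). A minimum mean of 50 leaves Nfkbie, Rel and Tnfaip3 untested, and fitting only the groups compared gives no value for the difference. Rel, Tnfaip3 and Nfkbie had means of at most 24.3 counts in any group, which limits the precision of their values.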

Other observations

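The 18 genes listed as known NF-κB targets encode chemokines, cytokines, adhesion molecules, acute-phase proteins, enzymes and a receptor, and are a list chosen with earlier results known. LPS raised 7 of the 18 in MyD88ko cells (median log2 fold change 0.91) and 11 in wt cells (1.55) and lowered 0 in either, with limma at an adjusted p under 0.05. Of all genes tested, 2.58% were called higher and 3.40% lower in MyD88ko cells, and 9.55% and 9.66% in wt cells. The 7 were Cxcl1, Cxcl2, Cxcl5, Ccl2, Ccl7, Ccl20 and Vcam1, all of which also rose in wt cells. Cxcl5, a neutrophil attractant, rose 35.9-fold in MyD88ko cells and 18.3-fold in wt cells (limma adjusted p = 2.3e-05 and 1.86e-05), and Ccl2, a monocyte attractant, 13.5-fold in MyD88ko cells and 11-fold in wt cells (limma adjusted p = 0.000166 and 5.45e-05). Mean Cxcl5 counts were 275 with LPS and 7.33 untreated in MyD88ko cells, against 5625 and 333 in wt cells. Mean Ccl2 counts were 781 with LPS and 64.7 untreated in MyD88ko cells, against 4664 and 453 in wt cells. Both genes were called lower in MyD88ko than in wt cells, with LPS and untreated. With LPS 11 of the 18 were lower in MyD88ko than in wt cells, where 1.04% of all genes were called lower. Untreated 8 were lower, where 1.09% of all genes were. Il6, an inflammatory cytokine, had 8, 4 and 5 counts in MyD88ko cells with LPS and 2, 10 and 3 in MyD88ko cells untreated, against 50, 54 and 77 in wt cells with LPS and 8, 5 and 15 in wt cells untreated. Its response did not pass in MyD88ko cells (1.27-fold, limma adjusted p = 0.794), it rose in wt cells (6.33-fold, limma adjusted p = 0.00375) and was 9.32-fold lower in MyD88ko than in wt cells with LPS (limma adjusted p = 0.00539). Sod2, which encodes the mitochondrial superoxide dismutase, had a 1.12-fold response that did not pass in MyD88ko cells (limma adjusted p = 0.716), rose 2.38-fold with LPS in wt cells (limma adjusted p = 0.000391) and was 3.06-fold lower in MyD88ko than in wt cells with LPS (limma adjusted p = 0.000214). Tnfaip2 and Icam1 were also called with LPS in wt cells only. Tnfaip2 rose 2.68-fold in wt cells (limma adjusted p = 0.000132) and was 1.07-fold in MyD88ko cells (limma adjusted p = 0.855). Icam1 rose 8.56-fold in wt cells (limma adjusted p = 0.0195). Its 6.85-fold response in MyD88ko cells fell short of the threshold, with overlapping groups (limma adjusted p = 0.0727). The difference between the LPS responses called 0 of the 18.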
